A study of Helianthus annuus with 142 samples.

Results

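The 175 leaf genes described here are those of sunflower (Helianthus annuus) that were expressed in watered plants and stood at much higher levels in droughted ones. They were chosen from 58033 genes of the count table, of which 57891 carry an identifier placed on a chromosome, by their mean level over all libraries. A gene was taken when its control mean was at least 1 CPM (the count scaled to the total of its library) and when the log2 ratio of the stress mean over the control mean, with 0.5 CPM added to each, was at least 3. Such a ratio is close to 8-fold. The drought difference of these genes is therefore what chose them, and it is given as a description with no test.

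The stressed plants had water withheld and, per the labels, a fraction of transpirable soil water of 0.1, which is the part of the plant-available soil water still left. The control plants were kept at a fraction of 1. Both conditions held 16 hybrids and 8 lines with up to 3 plants each, 1 plant per library. The 72 stress libraries came from 48 hybrid and 24 line plants, and the 70 control libraries from 48 hybrid and 22 line plants. Each hybrid is named after a first line (SF009, SF092, SF109 or SF193) and a second line (SF279, SF317, SF326 or SF342), and which of them bore the seed is not in the labels. The hybrids were SF009_SF279, SF009_SF317, SF009_SF326, SF009_SF342, SF092_SF279, SF092_SF317, SF092_SF326, SF092_SF342, SF109_SF279, SF109_SF317, SF109_SF326, SF109_SF342, SF193_SF279, SF193_SF317, SF193_SF326 and SF193_SF342. The control group of SF342 is 1 plant, which the tests assume to vary like the others. Per the growth protocol, plants were grown alone in pots of 15 L of soil. That text mentions plants of another genotype, and how far it applies to these samples is unclear. The tissue was leaf.

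Plants that lose water raise the hormone abscisic acid, which closes stomata and switches on many genes through transcription factors that bind its response elements in promoters. Products commonly raised in drying leaves include dehydrins and other late embryogenesis abundant proteins, protein phosphatases that damp the hormone's signal, and enzymes and transporters of sugars and other compatible solutes. None of the 175 genes can be tied to these roles here: the identifiers are not paired with symbols or descriptions in the tables used, and 0 of them matched 83308 RefSeq genes. The leaf label could not be checked against marker genes for the same reason. In whole leaves, a change in the cells that make an RNA and a change in RNA per cell cannot be told apart.

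Total counts ran from 2791984 to 13765563 per library, with a median of 6921971. A check on 1951 genes that are on in some genotypes and off in others placed all but 4 libraries with their own label. The library labelled SF092_SF317 stress 3 had the state of its labelled genotype at 50.8% of these genes and that of SF326 at 96.5%. The library labelled SF326 stress 3 had its own genotype's state at 50.03% and that of SF092_SF317 at 95.3%. The libraries labelled SF009_SF279 control 1 (66.2%, against 79.1% for SF009_SF326) and SF009 control 2 (78.9%, against 79.2% for SF009_SF326) also agreed better with another genotype. The libraries of SF009 had at best 74.3% to 84.2% of these genes in the state of any genotype. Values below use the labels as given, and values without these libraries stand beside the results that rest on them.

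The 175 genes had a median stress mean of 96.6 CPM (12.3 to 7255) and a median control mean of 5.07 CPM (1.03 to 330). The linear ratio of the 2 means had a median of 15.3 and ran between 8.18 and 593. It reached 32 in 36 genes and 100 in 9. By control mean, 59 genes stood at 1 to under 3 CPM, 65 at 3 to under 10 and 51 at 10 or more, and the median log2 ratios of these bands were 3.92, 3.69 and 3.65. Together the genes took 5.07% ± 2.94 of all counts in stressed plants (0.339% to 11.2%, SD, n = 72 plants) and 0.246% ± 0.0687 in control plants (0.125% to 0.452%, n = 70). The most abundant gene under stress held 14.3% of that stress signal and the 10 most abundant held 44.2%.

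**Figure D1:**
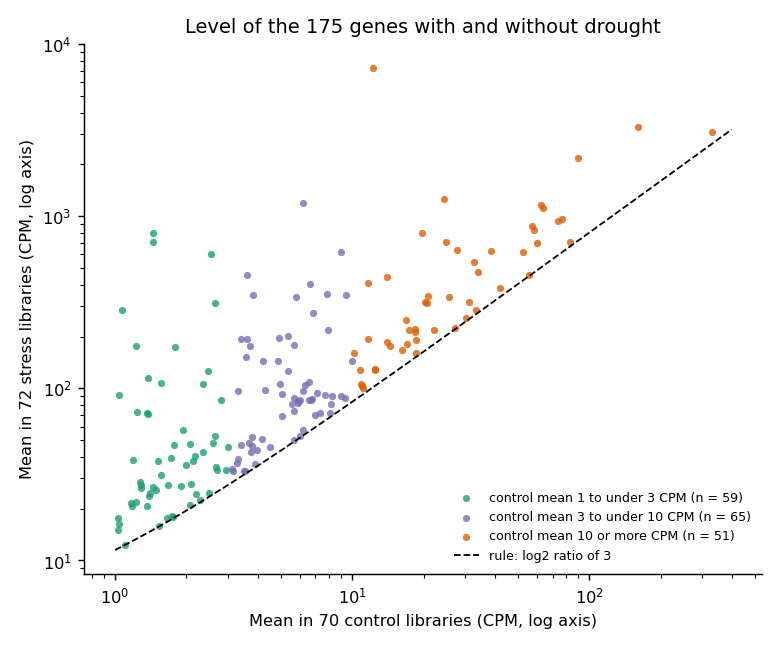
Mean level of each of the 175 genes in 72 stress libraries (vertical axis, CPM, log scale) against its mean in 70 control libraries (horizontal axis, CPM, log scale), coloured by control band. The dashed line is the choice rule, so every point lies above it; most points lie close to it, and 1 gene stands far above the rest at 7255 CPM under stress and 12.2 CPM in control.

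The gene furthest above the rule was HanXRQChr07g0190361 (chromosome 7, 28341847 to 28343221, plus strand). Its stress level was 391 to 17333 CPM in hybrids (median 9923) and 102 to 13294 CPM in lines (median 2004), against 2.44 to 190 CPM in control hybrids (median 8.73) and 2.51 to 18.6 CPM in control lines (median 5.85). Of 72 stressed plants, 1 lay within the control range, SF193 stress 2 at 102 CPM, and the top of that range was SF092_SF326 control 1 at 190 CPM. Its log2 difference was smallest in SF193 (6.69) and largest in SF092_SF342 (10.69).

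The next largest ratios belonged to HanXRQChr08g0207301 (chromosome 8, 58790 to 60869, minus strand), at 799 CPM under stress and 1.44 CPM in control, and HanXRQChr17g0563761 (chromosome 17, 174553072 to 174560343, minus strand), at 711 and 1.44 CPM. HanXRQChr08g0207301 was uneven among stressed plants, with a median of 944 CPM in hybrids (2.42 to 3129) and of 17.0 CPM in lines (0.793 to 3436). SF009 averaged 1326 CPM there, while SF342 averaged 4.76, SF109 9.10 and SF092 14.7 CPM. The SF326 mean of 1016 CPM rested on the library in doubt, since its plants held 8.80, 0.793 and 3038 CPM in number order.

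Among genes already abundant in watered leaves, HanXRQChr13g0419741 (chromosome 13, 173846310 to 173852752, plus strand) averaged 3066 CPM under stress and 330 CPM in control. HanXRQChr14g0462551 (chromosome 14, 173574507 to 173621255, plus strand) averaged 3313 and 161 CPM, and HanXRQChr10g0308121 (chromosome 10, 204204197 to 204204658, plus strand) 2178 and 89.7 CPM. HanXRQChr14g0462551 spread widely under stress, over 29.1 to 20112 CPM in hybrids (median 3675) and 4.34 to 11502 CPM in lines (median 224). HanXRQChr13g0419741 was tighter, at 590 to 7765 CPM in stressed hybrids (median 3359) and 495 to 4827 CPM in stressed lines (median 1649).

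At the edges of the rule, the nearest genes inside the ratio threshold were HanXRQChr07g0188501 (12.3 CPM under stress, 1.10 in control) and HanXRQChr04g0098291 (15.9 and 1.53 CPM). The nearest outside it were HanXRQChr10g0293251 (1997 and 249 CPM, log2 ratio 2.999) and HanXRQChr04g0098051 (94.2 and 11.4 CPM, log2 ratio 2.995). On the control threshold, HanXRQChr09g0273001 and HanXRQChr15g0485571 stood just inside, both at 1.03 CPM in control. HanXRQChr01g0000801 at 0.982 CPM and HanXRQChr05g0139101 at 0.973 CPM stood just outside, with log2 ratios of 3.73 and 4.09. A further 161 genes met the ratio and stayed under 1 CPM in control.

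The lowest stressed plant lay above the highest control plant in 3 of the 175 genes, and in 0.0108% of the 36989 genes tested. These 3, named after their values were seen, were HanXRQChr02g0055451, HanXRQChr10g0294501 and HanXRQChr11g0332781. HanXRQChr11g0332781 (chromosome 11, 57787382 to 57789225, plus strand) had 65.1 to 679 CPM in stressed hybrids (median 393) and 51.4 to 568 CPM in stressed lines (median 261), against 0.163 to 18.3 CPM in control hybrids (median 2.97) and 0.139 to 9.08 CPM in control lines (median 1.17). In the median gene, 12 of 72 stressed plants lay within its control range. That number was above 36 in 7 genes and reached 60 in HanXRQChr12g0366911, where the highest control plant held 80.9 CPM and the median stressed hybrid 50.6 CPM; this gene was also named after its values were seen.

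Across the 24 genotypes, 155 of the 175 genes had a higher mean log2 level under stress than in control in all 24, as did 15.2% of all genes tested, and the remaining 20 in at least 20 genotypes. Without the 4 libraries in doubt the number was 152. A difference of 8-fold or more appeared in all 24 genotypes for 9 genes (8 without those libraries), in at least 12 genotypes for 154, and in at least 8 for each gene. The genotype with the smallest log2 difference was a line for 166 genes, SF193 for 66 of them and SF342 for 59. The genotype with the largest was a hybrid for 151 genes, most often SF109_SF326 (35) and SF092_SF342 (28). Both choices use the contrast of the rule, and nothing is read from them.

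Summarised by the median log2 difference over the 175 genes, hybrids ran from 3.01 (SF092_SF326) to 4.44 (SF109_SF279), and lines from 1.89 (SF193) to 4.34 (SF009). In order, the lines stood at 1.89 in SF193, 1.95 in SF342, 2.28 in SF092, 2.56 in SF317, 2.59 in SF109, 2.86 in SF279, 3.25 in SF326 and 4.34 in SF009. SF009 stood among the highest hybrids, and SF326 above the lowest pair of hybrids. Without the libraries in doubt, SF326 had 2.50, SF009 4.48 and SF092_SF317 3.79 in place of 3.17.

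**Figure D2:**
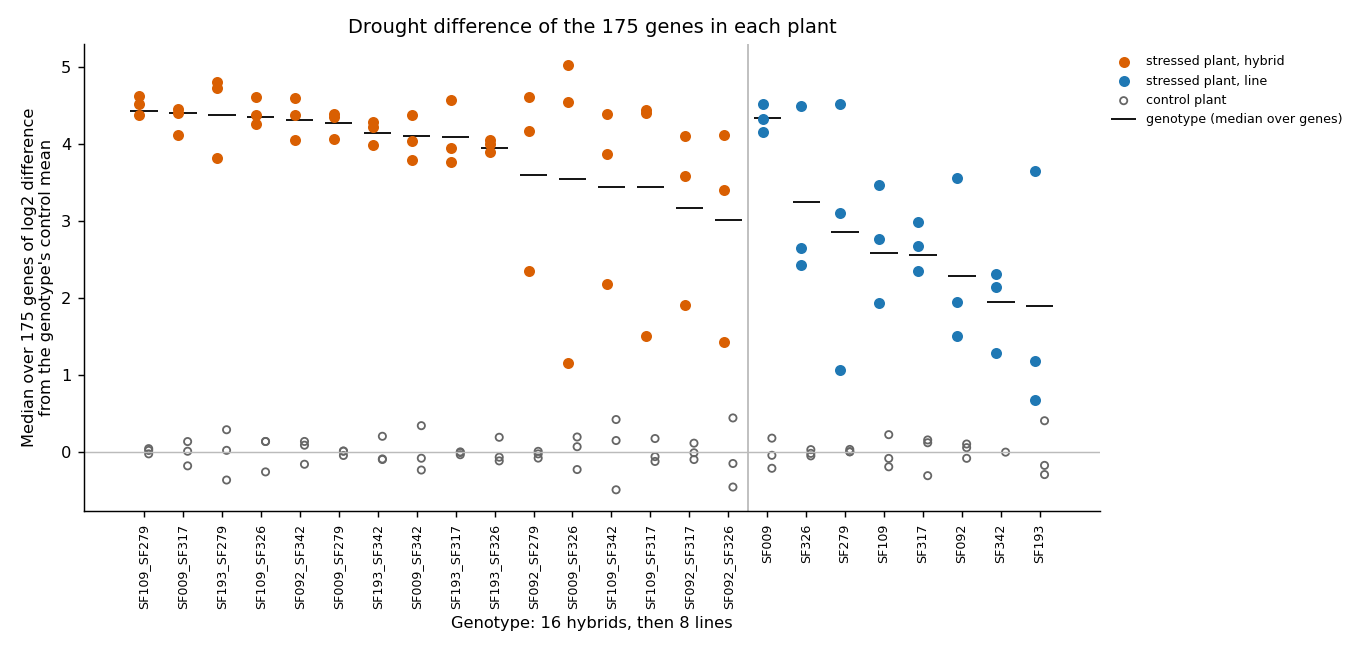
For each plant, the median over the 175 genes of its log2 level (CPM + 0.5) minus the control mean of its genotype (vertical axis), by genotype, with 16 hybrids on the left and 8 lines on the right. Filled points are stressed plants, open points control plants and bars the genotype's median over genes; control plants lie between -0.49 and 0.44, while stressed plants of 1 genotype can differ by up to 3.87.

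Plants of 1 genotype could differ widely. In single stressed plants the median over genes ran from 1.16 to 5.03 in hybrids (median plant 4.20) and from 0.68 to 4.53 in lines (median plant 2.67), whereas control plants lay between -0.49 and 0.44. The lowest plant was SF193 stress 2, in which 59 genes were above 2-fold, and the other SF193 plants stood at 1.19 and 3.66. SF009_SF326 held the widest set, with plants at 1.16, 4.55 and 5.03. The range within a genotype had a median of 0.69 in hybrids and 1.79 in lines. In the order of the 24 genotypes, the plants of each overlapped in this value with those of the next one.

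The genes moved together from one stressed plant to the next. Across 72 stressed plants the median correlation between 2 of the genes was 0.66 (Pearson r of log2 levels), and it was 0.68 after each group's mean was removed; across 70 control plants the values were 0.11 and 0.12. With levels, 77.9% of pairs exceeded 0.5 in stressed plants and 9.81% did in control plants. These plants share library depth and the scaling to the library total. Genes chosen for a large drought difference can also be expected to move together where plants differ in the size of that difference. No value for other genes stands beside these correlations, so they are a description and not a trait particular to the 175. A set of 405 genes was chosen for the opposite sign, with at least 10 CPM in control and a log2 ratio of -2 or less. In the same stressed plants, the plant medians of the 175 genes and of these 405 correlated at r = -0.934 (-0.927 in 48 hybrid plants, -0.904 in 24 line plants). Both sets were chosen by the drought difference of these same plants, so the opposite direction follows from the choice and the value is a description. The plant medians of the 175 genes correlated with total counts at r = 0.137 over the stressed plants, at -0.0851 in hybrids and at 0.478 in lines; the part of depth was not tested.

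Whether the genes responded alike in all genotypes was asked with the interaction of genotype and water supply. The choice rule did not use differences among genotypes, but it averaged the CPM of these same plants. A gene could pass it through very high levels in a part of the genotypes. The share called is therefore not free of the choice. It was called for 52 of the 175 genes (29.7%), against 11.9% of the genes tested (edgeR F-test with 23 degrees of freedom, adjusted over all genes, p under 0.05). With limma voom the share was 10.9% of the 175 (19 genes) and 13.6% of the genes tested, so the excess over all genes was not seen with that tool. With 2 plants a group in place of 3 the count was 4 to 8 (2.29% to 4.57%), against 1.15% to 1.76% of the genes tested. The smallest p-values belonged to HanXRQChr13g0419701 (adjusted p = 3.4e-05), HanXRQChr05g0151021 (7.6e-05) and HanXRQChr04g0105951 (0.00058). The first pair had very low stress levels in some genotypes and are described with the others of that kind further on.

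HanXRQChr04g0105951 (chromosome 4, 61466207 to 61470071, minus strand) differed mainly through its control level. Stressed plants had 200 to 1304 CPM in hybrids (median 819) and 251 to 987 CPM in lines (median 480), while control plants had 9.89 to 156 CPM in hybrids (median 33.6) and 29.4 to 269 CPM in lines (median 78.5). Control means were highest in SF092, at 201 CPM, and its log2 difference of 1.52 was the smallest. The smallest interaction F among the more abundant of the 175 genes was that of HanXRQChr02g0044471 (F = 0.433, edgeR adjusted p = 1). Its log2 difference still ran between 1.82 in SF193 and 4.27 in SF009, and a small F does not show that the genotypes responded alike.

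The next comparison asks whether hybrids and lines, each taken as the equal-weight mean of their genotypes, responded to drought to the same extent. This and the later tests of hybrids against lines take their spread from plants within a group. Differences among lines, and among hybrids, which share parents, do not enter the standard errors or p-values. The p-values therefore concern these genotypes and not hybrids or lines at large. The mean log2 response of the 175 genes had a median of 4.07 in hybrids and 3.02 in lines, and the difference, hybrids minus lines, was above 0 in 152 genes, with a median of 1.07. The response was larger in hybrids for 80 genes and smaller for 2, against 11.2% and 17.5% of the genes tested (edgeR, Benjamini-Hochberg adjusted p under 0.05). Over all genes tested the median difference was -0.08. Among the 11604 genes called higher under drought on average, 31.4% of those tested, the median response was 0.57 in hybrids and 0.39 in lines, and 32.1% were called larger in hybrids.

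This comparison is not free of the choice of genes, because the stress mean of the rule holds 48 hybrid and 24 line libraries. When the genes were chosen with hybrids and lines weighted equally, 68 of 157 had a larger response in hybrids and 2 a smaller one. When they were chosen in line libraries alone, the numbers were 28 and 3 of 95. Without replicate 2 the number of larger responses was 41 of 175 (23.4%), against 6.29% of the genes tested in that fit. By replicate number the mean of the plants' medians was 3.73 in hybrids and 2.54 in lines for number 1, 4.03 and 2.36 for number 2, and 4.06 and 3.33 for number 3.

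**Figure D3:**
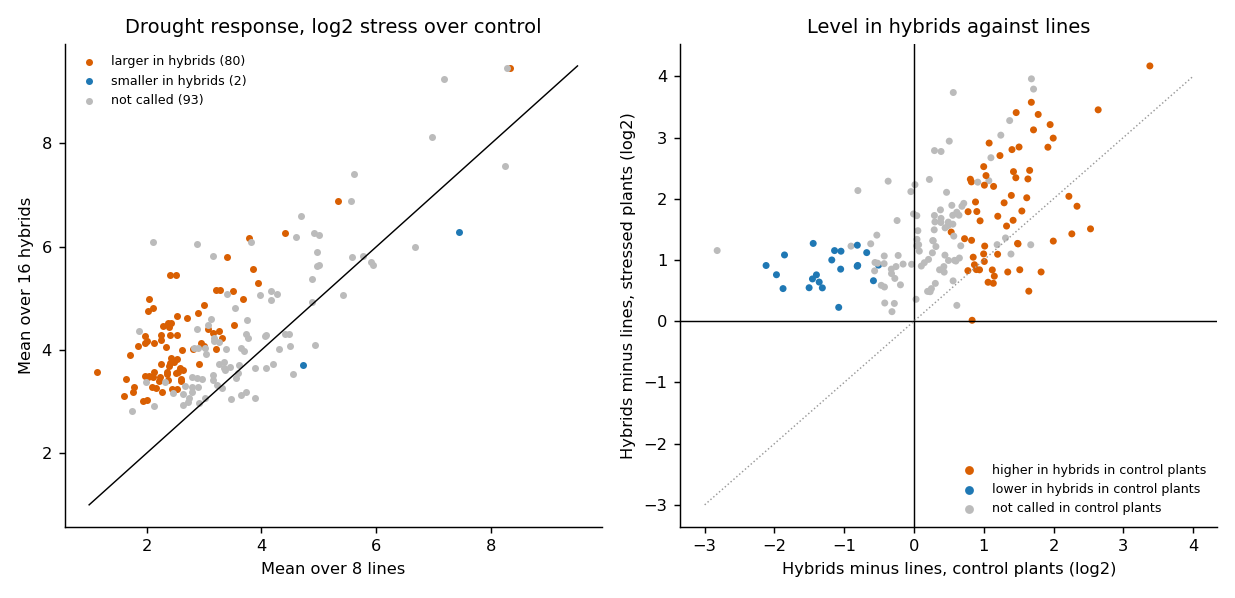
Left, mean log2 drought response of each of the 175 genes over 16 hybrids (vertical) against 8 lines (horizontal), with the line of equality; 80 genes were called larger in hybrids, 2 smaller and 93 were not called. Right, hybrids minus lines (log2) in stressed plants (vertical) against control plants (horizontal), with the line of equal difference dotted; every gene lies above 0 on the vertical axis, and 21 called genes lie to the left of 0 on the horizontal one.

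The largest positive difference among called genes was that of HanXRQChr16g0499601 (chromosome 16, 7093291 to 7094364, minus strand). It had 15.3 to 444 CPM in stressed hybrids (median 193) and 8.77 to 217 CPM in stressed lines (median 82.0), against 0.125 to 53.0 CPM in control hybrids (median 2.94) and 0.953 to 87.4 CPM in control lines (median 6.74). The groups overlapped in both conditions. Its mean log2 response was 5.45 in hybrids and 2.41 in lines, a difference of 3.03 ± 0.45 (SE, edgeR adjusted p = 2.9e-07). HanXRQChr03g0073931 (2.94 ± 0.50, adjusted p = 5.1e-06) and HanXRQChr08g0236781 (2.94 ± 0.47, adjusted p = 1.3e-06) followed. In each of these genes the control mean of 1 line stood apart from the other lines. It was SF092 at 59.8 CPM in HanXRQChr16g0499601 and at 18.8 CPM in HanXRQChr08g0236781. In HanXRQChr03g0073931 it was SF342 at 23.4 CPM, from 1 plant. The line responses rest in part on these values.

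The 2 genes with a smaller response in hybrids were HanXRQChr11g0332781 (-1.16 ± 0.39, edgeR adjusted p = 0.017) and HanXRQChr13g0419721 (-1.02 ± 0.36, adjusted p = 0.024). Both had higher control levels in hybrids, by 1.65 ± 0.33 (adjusted p = 4.4e-05) and 2.53 ± 0.35 (adjusted p = 9.2e-09) on the log2 scale. With the libraries in doubt and also all libraries of SF009 and SF092 left out, 15 in all, neither was called. The SF092 libraries were not in doubt in the check of labels.

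In control plants, 62 of the 175 genes were higher in hybrids and 21 lower, against 20.4% and 12.7% of the genes tested. Chosen in line libraries alone, 53 of 95 genes were higher and 4 lower. The median difference was 0.53, and 127 genes lay above 0. The largest called positive differences were those of HanXRQChr08g0216971 and HanXRQChr12g0360161, and the largest negative ones those of HanXRQChr16g0499601 (-2.12 ± 0.33, edgeR adjusted p = 1.9e-07) and HanXRQChr05g0157121 (-1.97 ± 0.38, adjusted p = 1.5e-05). HanXRQChr12g0360161 (chromosome 12, 18520883 to 18521961, minus strand) had a median of 6.98 CPM in control hybrids (0 to 20.8) and of 0.749 CPM in control lines (0.1504 to 6.10), a difference of 2.64 ± 0.56 (SE, edgeR adjusted p = 1.0e-04).

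HanXRQChr05g0157121 (chromosome 5, 197199946 to 197200588, minus strand) went the other way, with a median of 1.94 CPM in control hybrids (0.269 to 66.5) and of 7.49 CPM in control lines (0 to 96.9). All 21 genes that were lower in control hybrids had a called larger response in hybrids, and 19 of them were higher in stressed hybrids. The same response call was made for 10 of the 62 genes higher in control hybrids. Both differences are taken from the same control plants, so the counts are not independent.

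In stressed plants, 166 of the 175 genes were higher in hybrids and 0 were lower, against 23% and 21.2% of the genes tested (edgeR, Benjamini-Hochberg adjusted p under 0.05). The stress mean that chose the genes holds 48 hybrid and 24 line libraries, so this comparison is not free of the choice either. Among the 11604 genes called higher under drought on average, 52.2% were higher in stressed hybrids and 408 genes were lower. At an unadjusted p under 0.05 the counts were 169 and 0, and 0 were lower with limma voom or DESeq2 as well. The difference was above 0 for each of the 175 genes, with a median of 1.26 and a lowest value of 0.02 (HanXRQChr13g0419091, adjusted p = 1, named after its values were seen); over all genes tested the median was 0.04. With equal weights in the choice 149 of 157 genes were higher, and with genes chosen in line libraries alone 88 of 95 were. As a share of all counts the 175 genes averaged 6.29% in stressed hybrids and 2.64% in stressed lines.

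The largest called differences under stress were those of HanXRQChr08g0216971 and HanXRQChr03g0072431. HanXRQChr03g0072431 (chromosome 3, 84075058 to 84075581, minus strand) had 0.114 to 628 CPM in stressed hybrids (median 82.7) and 0 to 384 CPM in stressed lines (median 1.83), a difference of 3.96 ± 0.48 (adjusted p = 3.7e-11). HanXRQChr02g0055451 was among the 9 genes not called: it had 19.4 to 421 CPM in stressed hybrids (median 166) and 29.1 to 332 CPM in stressed lines (median 88.8), a difference of 0.26 ± 0.18 (adjusted p = 0.26). For 11 of the 175 genes at least 1 of the 48 groups held no read, and the fitted log2 differences of such genes depend on how zeros are handled. HanXRQChr08g0207301 and HanXRQChr08g0216971 are counted as not called for the difference in response, whose standard errors of 4411 and 3898 on the log2 scale leave its size undetermined.

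Set beside each labelled cross, the median log2 difference of the hybrid exceeded that of both of its lines in 12 of 16 crosses, also without the libraries in doubt. The exceptions were SF092_SF326 (3.01, with 2.28 in SF092 and 3.25 in SF326), SF009_SF279, SF009_SF326 and SF009_SF342. Without the libraries in doubt, SF009_SF317 (4.41) lay under SF009 (4.48) and SF092_SF326 (3.01) above SF326 (2.50). In SF193_SF342, 163 of the 175 genes had a larger difference than both lines, 11 lay between and 1 lay below. In SF009_SF326, 25 lay above, 101 between and 49 below. These counts compare means of up to 3 plants and carry no test.

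Genotypes also differed in the control level of these genes. The test among the 24 control groups called 81 of the 175 genes (46.3%), a smaller share than the 67.2% of all genes tested. With 2 plants a group the count was 49 to 57 (28% to 32.6%), against 49.4% to 56.7% of the genes tested. With limma voom it was 32 (18.3%, against 67.8% of the genes tested). The 3 smallest p-values all lay on chromosome 13, in HanXRQChr13g0419701 (edgeR adjusted p = 1.9e-20), HanXRQChr13g0416761 (5.1e-16) and HanXRQChr13g0419741 (4.0e-11).

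HanXRQChr13g0416761 (chromosome 13, 161286472 to 161287095, minus strand) mostly followed the labelled parents under stress. Among stressed hybrids it averaged 72.8 to 192 CPM in the 4 hybrids of SF342, 85.4 to 141.7 CPM in the other hybrids of SF109, and 5.24 to 7.66 CPM in the 6 hybrids of SF092 and SF193 with SF279, SF317 or SF326. The other hybrids of SF009 were divided: SF009_SF279 averaged 9.87 CPM, SF009_SF317 52.2 CPM and SF009_SF326 52.6 CPM. The stressed lines averaged 149 CPM in SF109, 52.4 in SF342 and 44.6 in SF009, and between 2.97 and 4.45 CPM in the remaining 5. In control plants the lines held 21.5 CPM in SF109, 13.9 in SF342 and 4.83 in SF009, with 0.353 to 0.896 CPM in the remaining 5. The interaction over all 24 genotypes was not called (edgeR adjusted p = 0.50), while the response was larger in hybrids than in lines by 1.29 ± 0.42 (SE, edgeR adjusted p = 0.014).

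Positions of the 175 genes covered all 17 chromosomes, at 1.74 to 4.40 genes per 1000 genes in the table (the highest rate on chromosome 3, the lowest on chromosomes 2 and 15). Of the 175, 13 had another within 100 kb, forming 8 pairs, and 6 of these pairs were adjacent genes. Coordinates were taken from the count table, and no source used here names their genome build. HanXRQChr01g0010931 (chromosome 1, 71047850 to 71048317, minus strand) and HanXRQChr01g0010941 (71055631 to 71056098, minus strand) have gene models of the same length, 468 bases, and stress means of 174 and 176 CPM; over stressed plants they correlated at r = 0.974. HanXRQChr02g0044471 (chromosome 2, 100902502 to 100905271, plus strand) and HanXRQChr02g0044481 (100909262 to 100912015, minus strand) correlated at r = 0.953. Whether such neighbours are copies that share reads was not analysed here, so their separate levels are uncertain.

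A run of 5 consecutive genes on chromosome 13, between 173760978 and 173852752, was included whole: HanXRQChr13g0419701, HanXRQChr13g0419711, HanXRQChr13g0419721, HanXRQChr13g0419731 and HanXRQChr13g0419741. HanXRQChr13g0419711 was named after its values were seen, as a part of the run. Their stress means were 88.2, 38.3, 878, 404 and 3066 CPM in that order, and their control means 5.66, 1.19, 57.4, 6.62 and 330 CPM. The correlations between neighbours over stressed plants were lower than in the pairs above, at 0.463, 0.699, 0.772 and 0.356 along the run, and each gene had its own pattern over genotypes. HanXRQChr13g0419721 and HanXRQChr13g0419731 lie on opposite strands, and how strand was used in counting is not stated.

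**Figure D4:**
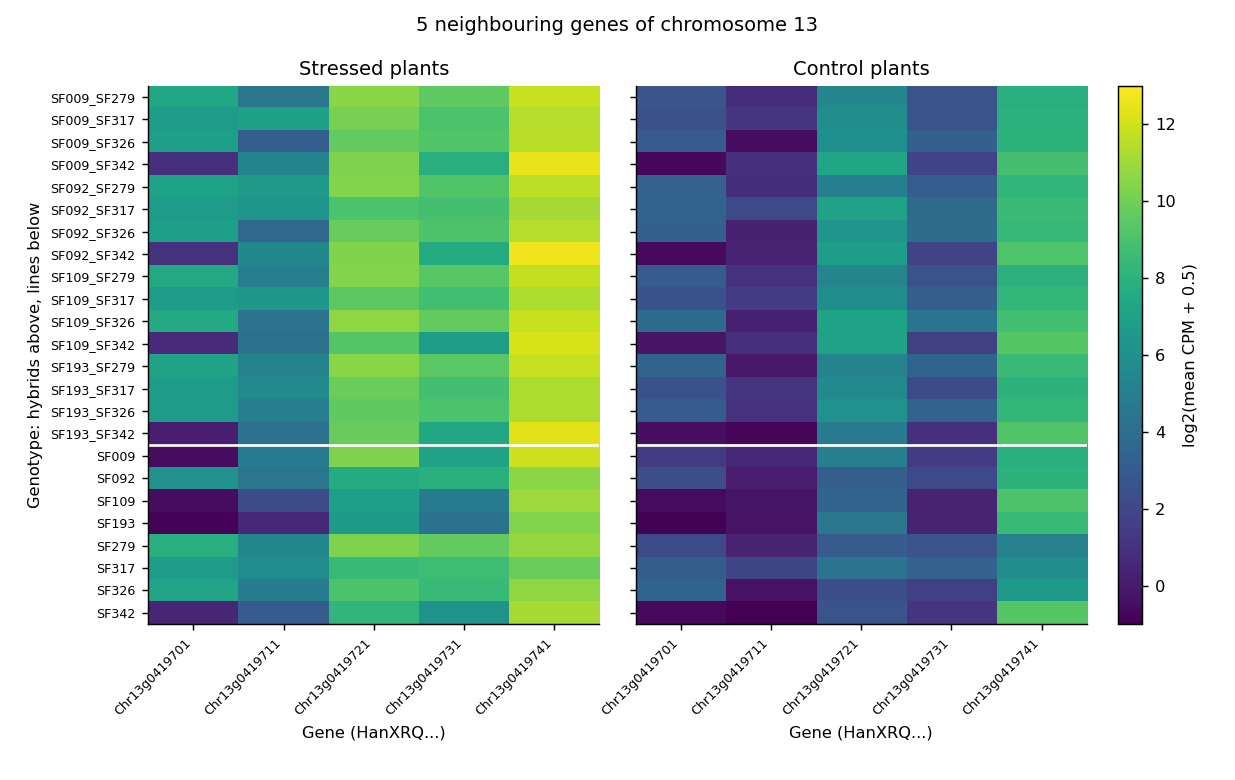
Level of the 5 consecutive chromosome 13 genes (columns, in chromosome order) in the 24 genotypes (rows, 16 hybrids above the white line and 8 lines below), as log2 of the mean CPM plus 0.5, in stressed plants on the left and control plants on the right. The leftmost gene is dark in the 4 hybrids of SF342 and in 4 lines, and the rightmost is brightest in the hybrids of SF342.

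At the far end of the run, HanXRQChr13g0419741 had its highest stress means in the 4 hybrids of SF342, at 4542 to 6776 CPM, against 2250 to 3672 CPM in the other 12 hybrids. The ranges of these means did not overlap. In control plants the same hybrids averaged 463 to 626 CPM and the other 12 hybrids 229 to 442 CPM. Among lines under control, SF342 averaged 641 CPM and SF109 540 CPM, while SF279, SF317 and SF326 averaged 34.8, 61.1 and 97.8 CPM. Its log2 drought difference was 5.34 in SF279 and 1.82 in SF342.

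A part of the genes stayed far under its usual stress level in some genotypes. With a threshold chosen after seeing the data, a gene was counted as low in a genotype when its highest stressed plant lay under 5% of the gene's median stress level over genotypes. By that measure 6 of the 175 genes were low in at least 1 hybrid and 27 in at least 1 line. The choice of genes shapes this contrast, since hybrids weigh more both in the stress mean of the rule and in the median over genotypes, and nothing is read from it. SF342 was low for 15 genes, SF109 and SF317 for 8 each, SF193 for 6, SF092 and SF279 for 5 each, SF009 for 1 and SF326 for 0. The 0 of SF326 rested on the library in doubt: without the 4 such libraries SF326 was low for 16 genes, SF342 for 14, SF109 for 8, SF193 and SF317 for 7 each, SF279 for 5, SF092 for 4 and SF009 for 1, and 32 genes were low in at least 1 line.

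By this measure no hybrid was low where neither labelled parent was. The measure leans on hybrids, as said above, so the counts that follow are a description and nothing on inheritance is read from them. No such counts over all genes stand beside them. Over the 16 crosses and 175 genes there were 2624 cases with neither parent low, and the hybrid was low in 0 of them. There were 160 cases with 1 low parent, of which the hybrid was low in 5, and 16 cases with both parents low, of which it was low in 8. Without the libraries in doubt the 3 shares were 0 of 2573, 6 of 206 and 8 of 21.

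**Figure D5:**
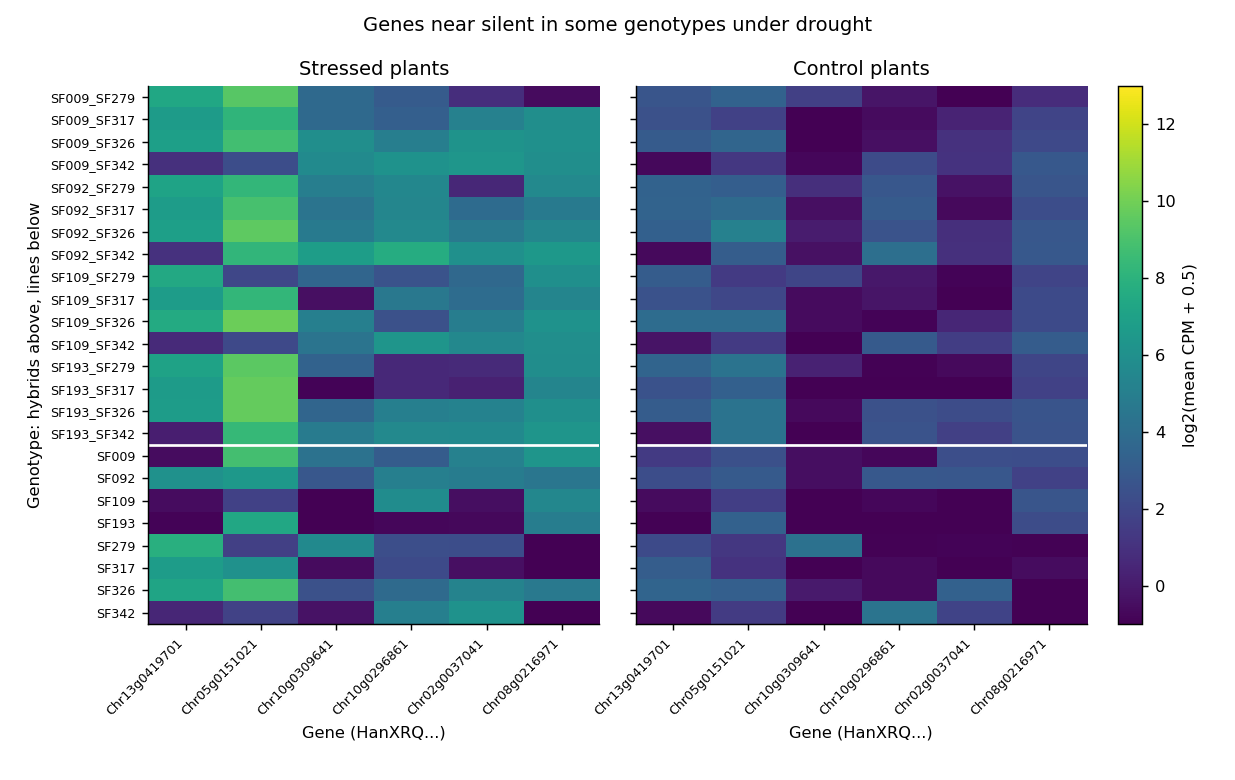
Level of the 6 genes that were low under drought in at least 1 hybrid (columns) in the 24 genotypes (rows, 16 hybrids above the white line and 8 lines below), as log2 of the mean CPM plus 0.5, in stressed plants on the left and control plants on the right. Dark cells on the left mark genotypes with a low level under stress, such as the 4 hybrids of SF342 in the first column.

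HanXRQChr13g0419701 (chromosome 13, 173760978 to 173761289, minus strand) showed the clearest pattern. Under stress it averaged 101 to 189 CPM in the 12 hybrids of SF279, SF317 and SF326, and 0.612 to 1.52 CPM in the 4 hybrids of SF342. The stressed lines averaged 230 CPM in SF279, 146 in SF326, 106 in SF317 and 67.3 in SF092, against 0.916 in SF342, 0.195 in SF009, 0.178 in SF109 and 0.0426 CPM in SF193. The 2 sets of genotypes did not overlap. SF092_SF342 was low although SF092 was not: its plants held 0.198, 3.64 and 0.720 CPM, and those of SF092 held 41.3, 41.4 and 119 CPM. SF009 plants under control held 0.238, 5.09 and 1.10 CPM, the second being a library in doubt.

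HanXRQChr05g0151021 (chromosome 5, 168690302 to 168693896, minus strand) split the genotypes another way. Stressed plants averaged 3.44 CPM in SF109_SF279, 3.82 in SF109_SF342 and 4.50 in SF009_SF342, and 284 to 940 CPM in the other 13 hybrids. Among stressed lines, SF279, SF109 and SF342 averaged 2.62, 2.71 and 2.90 CPM, and the remaining 5 averaged 67.8 to 457 CPM. The plants of SF009 held 280, 5.28 and 1080 CPM, so this line was itself divided.

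HanXRQChr08g0216971 (chromosome 8, 30553171 to 30556310, minus strand) had no read in any of the 3 stressed plants of SF279, SF317 and SF342. Stressed hybrids of these lines averaged 26.5 to 88.2 CPM, with 1 exception, SF009_SF279 at 0.166 CPM, although SF009 plants held 38.4, 98.2 and 96.7 CPM. In the control plants of SF009_SF279 it held 3.63, 0 and 0 CPM, and the plant at 3.63 CPM is a library in doubt. The stressed plants of SF326 held 0, 0.198 and 73.7 CPM and those of SF092_SF317 held 38.9, 40.6 and 0 CPM, and in each set the odd plant is the library in doubt.

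For some genes a hybrid was not low by the 5% measure although both of its labelled lines were. The measure leans on hybrids, and nothing on inheritance is read from these values either. HanXRQChr08g0207301 averaged 433 CPM in stressed SF092_SF342, against 14.7 CPM in SF092 and 4.76 CPM in SF342, and 822 CPM in SF109_SF342, against 9.10 CPM in SF109. HanXRQChr03g0072431 held 27.1, 40.4 and 83.4 CPM in the plants of SF092_SF342, while SF092 averaged 1.23 CPM and SF342 1.19 CPM. HanXRQChr02g0037041 averaged 15.1 CPM in SF109_SF317, against 0.212 CPM in SF109 and 0.240 CPM in SF317. HanXRQChr10g0309641 averaged 28.3 CPM in SF193_SF342, against 0 in SF193 and 0.294 CPM in SF342. The last pair were named after their values were seen.

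The 161 genes that met the ratio and stayed under 1 CPM in control give the nearest comparison. Of them, 18 (11.2%) had a called larger response in hybrids, against 80 of the 175 (45.7%) and 11.2% of the genes tested. In stressed hybrids 143 (88.8%) were higher, against 166 of the 175 (94.9%) and 23% of the genes tested. The median differences, hybrids minus lines, were not smaller in the 161. They were 1.25 for the response and 1.59 under stress, against 1.07 and 1.26 in the 175. The interaction was called for 7 of the 161 (4.35%) and 52 of the 175 (29.7%), against 11.9% of the genes tested. Their levels are lower, with a median of the mean log2 CPM of 2.86, against 5.60 in the 175, and the part of depth in these counts was not tested.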

How the data were processed

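The authors deposited a table of whole-number read counts per gene for 142 leaf libraries, and a second table of CPM (counts scaled to library totals), which was used only to see that it holds all 175 genes. Per the submitters' processing notes, edgeR 3.16.5 and R 3.3.3 were used, with no role stated; the aligner, the counter and the genome build: not given in the sources used here. Per the labels' protocols the reads were paired, oriented and 100 bp long, and the text may have been written for a study of another genotype.

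From the counts, 17 genes marked as ribosomal RNA were dropped and CPM were computed with library totals. Genes were filtered with filterByExpr over 48 groups of genotype by water supply (36989 left, all 175 among them), scaled by TMM and fitted with 1 mean per group in edgeR 4.0.16 (glmQLFit, robust; R 4.3.3); p-values are adjusted by Benjamini-Hochberg over all genes. Contrasts of hybrids and lines weigh genotypes equally, and their errors come from plants within groups, not from the spread among genotypes. The code was tested on simulated data. Values per plant and genotype use log2(CPM + 0.5), which understates changes of low genes. Alternatives were other scalings, no filter, each replicate left out, a replicate block, limma 3.58.1 voom, DESeq2 1.42.0, libraries left out and other choices of genes. Reads carried no molecular tags, and error from counting alone is therefore too small. Each library is a separate plant.

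The genes and all lists were chosen with earlier results of these data known. Genes are named by rules: the 3 highest control means and 3 largest ratios; the nearest to each threshold; the smallest p of the interaction and among control genotypes; the largest differences of each hybrid and line test; the 3 closest pairs; and the smallest interaction F. Others are marked as named after their values were seen. Nothing in the labels pairs same-numbered plants, and their deviations correlated above 0.1 in 35 of 69 pairs (median 0.103, and all 3 pairs in 3 genotypes). Numbers were therefore not treated as pairs, although 46 of 69 control plants correlated best with their own number. What pairing within genotypes would change was not tested. Lists by function could not be run without descriptions.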

Additional observations from a re-analysis of the deposited data

Results flagged for a closer look

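Among the 28 genes named by rule, 85 sets of 8 line values were tested for a value far from the others, and 15 held one. Chance gives about 1 in 20, a rate that does not apply to genes named for their differences. SF009 stood high under stress for HanXRQChr13g0419741 (4096 CPM), HanXRQChr11g0332781 (499 CPM), HanXRQChr02g0044471 (649 CPM), HanXRQChr02g0044481 (372 CPM), HanXRQChr01g0010931 (380 CPM) and HanXRQChr07g0188501 (17.1 CPM). It also had the log2 drought difference of HanXRQChr08g0207301 furthest from the others, at 9.20, and the control level of HanXRQChr12g0360161, at 2.63 CPM. In the check of labels, the libraries of SF009 had at best 74.3% to 84.2% of the genes in the state of any genotype. SF109 stood apart under stress for HanXRQChr13g0416761 (149 CPM). In control plants SF092 stood apart for HanXRQChr04g0105951 (201 CPM), HanXRQChr16g0499601 (59.8 CPM) and HanXRQChr08g0236781 (18.8 CPM), and SF193 for HanXRQChr11g0332781 (3.88 CPM). SF342, with 1 control plant, stood apart for HanXRQChr03g0073931 (23.4 CPM) and HanXRQChr04g0098291 (2.17 CPM).

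The drought response differed between hybrids and lines for 13 of these genes (edgeR, adjusted p under 0.05, log2 scale, hybrids minus lines). It was larger in hybrids by 3.03 for HanXRQChr16g0499601, 2.94 for HanXRQChr03g0073931, 2.94 for HanXRQChr08g0236781, 2.73 for HanXRQChr05g0157121, 2.00 for HanXRQChr04g0105951, 1.35 for HanXRQChr05g0151021, 1.34 for HanXRQChr02g0044481, 1.29 for HanXRQChr13g0416761, 1.23 for HanXRQChr09g0273001, 1.13 for HanXRQChr07g0190361 and 1.05 for HanXRQChr07g0188501. The difference was -1.16 for HanXRQChr11g0332781 and -1.02 for HanXRQChr13g0419721.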

How the results depend on the processing

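With 1 replicate number left out, the interaction was called for 4 to 8 genes, control differences among genotypes for 49 to 57, a larger response in hybrids for 41 to 78 and a smaller one for 1 to 2, higher control levels in hybrids for 37 to 49 and lower ones for 13 to 19, and higher stress levels in hybrids for 143 to 164. In those fits the interaction was called for 1.15% to 1.76% of all genes tested and control differences among genotypes for 49.4% to 56.7%. A larger response in hybrids was called for 6.29% to 9.13% and a smaller one for 11% to 12.4%. Control levels were higher in hybrids for 14.5% to 15.8% and lower for 8.55% to 9.91%. Stress levels were higher in hybrids for 15.1% to 22.4%. With 1 replicate number left out, the choice rule gave 169 to 189 genes. With limma voom the interaction was called for 19 genes (10.9%, under the 13.6% of all genes tested) and control differences among genotypes for 32 (67.8% of all genes tested). A smaller response in hybrids was called for 0 (18.6% of all genes tested) and higher control levels in hybrids for 38 (25.8%). DESeq2 gave 4 smaller responses (20.1% of all genes tested). Leaving out the libraries in doubt and also all libraries of SF009 and SF092, 15 in all, gave 0 (17.3%). Chosen in line libraries alone, 95 genes were found (84 shared with the 175), of which 28 had a larger response in hybrids, 4 lower control levels and 88 higher stress levels. A log2 ratio of at least 2 gave 469 genes and a control mean of at least 3 CPM gave 116. The cause of these differences was not tested. With the replicate block the interaction was called for 50 genes (11% of all genes tested) and differences among control genotypes for 81 (66.9%). The response was larger in hybrids for 79 (11%) and smaller for 2 (17.2%). Control levels were higher for 67 (20.5%) and lower for 21 (12.8%), and stress levels higher for 167 (23.1%) and lower for 0 (21.2%). The replicate numbers were not treated as pairs, since only 35 of 69 same-numbered pairs correlated above 0.1. Against that, 46 of 69 control plants correlated best with their own number, where an even pick gives 23, which is a hint of pairing from the data and not from the design. Of the other comparisons of single named genes, 845 kept their direction and call, 26 gained a call, 53 lost one and 0 changed direction.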
